A study of Mus musculus with 60 samples.

Results

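The genes described here are 9 feedback inhibitors of the ERK pathway: the MAP kinase phosphatases Dusp4, Dusp5 and Dusp6, the Sprouty genes Spry1, Spry2 and Spry4, the Sprouty-related genes Spred1 and Spred2, and Il17rd, also called Sef. They were chosen by symbol, with earlier results of these data known. All 9 are among the 50559 genes of the count table, and all 9 passed the filter on low counts with 15083 genes in all. RNA-seq of polyadenylated RNA had been made from mouse embryonic stem cells kept in serum with LIF on gelatin and exposed to 2i, which is CHIR99021 at 3 µM, an inhibitor of GSK3, together with PD0325901 at 1 µM, an inhibitor of MEK. The lines were V19 wild type, 1A Eed knockout, 1A Ezh2 knockout and 1A wild type. Times were 0, 12, 24, 48 and 96 h. With 3 biological replicates of each line and time there were 60 libraries in 20 groups. All groups share serum and LIF, and the 0 h groups had no inhibitor. Both knockouts derive from 1A by Cas9 editing and are represented by a single line each, so an effect of the lost gene and of the particular line cannot be told apart. The labels call the replicates biological and do not say how they were kept apart, so p-values measure the spread between these samples. In bulk RNA, fewer cells of a type and less RNA per cell cannot be told apart.

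ERK signalling starts at receptor tyrosine kinases, which in embryonic stem cells are driven largely by the cells' own Fgf4, and runs through Ras, Raf and MEK to ERK. MEK is the kinase that PD0325901 blocks, and it is the kinase that activates ERK. Active ERK raises transcription of its own inhibitors, so their mRNA is commonly used as a readout of the pathway. Dusp proteins remove the activating phosphates from ERK, Sprouty and Spred proteins act between the receptor and Raf, and Il17rd acts at the receptor and on the location of active MEK and ERK complexes. Eed and Ezh2 belong to the Polycomb complex PRC2, which silences genes by methylating histone H3, with Ezh2 as its main methyltransferase and Eed as a core subunit.

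Library totals ranged from 2561169 to 11065948 counts. Ezh2 had 14.5 to 19.9 CPM (read counts scaled to a common library size) in the Ezh2 knockout, against 194 to 278 CPM in 1A wild type, and Eed had 15.3 to 28.2 CPM in the Eed knockout, against 246 to 393 CPM in 1A wild type. The embryonic stem cell markers fixed for this check, which include Pou5f1, Sox2 and Nanog, summed to 3288 to 10620 CPM over the 60 libraries. A set of 5 libraries stood apart from the other replicates of their groups. They came from V19 at 48 h (replicate 2), the Eed knockout at 12 h (replicate 1) and 24 h (replicate 3), the Ezh2 knockout at 12 h (replicate 3) and 1A wild type at 24 h (replicate 1).

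In serum, before 2i, every inhibitor was expressed in every line. Levels between genes are compared per kilobase of listed exon length. In 1A wild type at 0 h, Dusp6 was highest with 59.0 CPM per kilobase, followed by Spry2 with 38.7, Spred1 with 32.1 and Dusp4 with 24.4 CPM per kilobase. Spry4 with 21.4 and Dusp5 with 20.9 CPM per kilobase were next, and the libraries of this pair overlapped. Spry1 with 7.92, Il17rd with 5.81 and Spred2 with 2.89 CPM per kilobase were lowest. The listed exon length of Spred2, 37937 bases, is far longer than the other 8, which span 1815 to 10374 bases, and it lowers the value of Spred2 per kilobase. After 48 h the order had changed: Spry2 led with 21.1 CPM per kilobase, while Spry4 was last with 0.189 and Dusp4 next to last with 0.630 CPM per kilobase. At 96 h Spry2 still led with 23.8 CPM per kilobase and Dusp4 was last with 1.21, its libraries overlapping those of Spred2 with 1.35 CPM per kilobase.

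Promoter windows from RefSeq on GRCm38.p6, from 250 bases before to 50 after the annotated start, were at hand for 7 of the 9 genes, namely Dusp5, Dusp6, Spry1, Spry2, Spred1, Spred2 and Il17rd. Motifs linked to MEK, ERK or GSK3 signalling were searched on both strands. They were the ETS motif CCGGAA, the CRE motif TGACG, the AP-1 site TGANTCA, the TCF core CTTTGA and the SRF site known as the CArG box. Shorter or other forms of these motifs were not searched, so a window without a match may hold them. The 5 matches fell in 3 of the 7 windows, and a match describes the letters only, not a bound site. The window of Dusp5 held a pair of SRF sites, which start 82 and 72 bases before the annotated start and do not overlap, and a CRE motif 55 bases before it. Of all 32851 windows, 1.63% held an SRF site and 20.8% a CRE motif. Spry2 had the ETS motif 33 bases past the first transcribed base, which 14.9% of all windows held, and Spred2 had a CRE motif. Neither the AP-1 site, in 7.81% of all windows, nor the TCF core, in 16% of them, occurred in the 7 windows. The windows of Dusp5, Spry2 and Dusp6 are shown because Dusp5 holds the paired SRF sites, Spry2 kept much of its level in 2i and Dusp6 lost nearly all of it. Each is given 5′ to 3′ on the gene's strand, with motif matches in capitals. Dusp5 is at chr19:53528895-53529194 on the plus strand, Spry2 at chr14:105896770-105897069 on the minus strand and Dusp6, which had no match, at chr10:99262981-99263280 on the plus strand.
Dusp5: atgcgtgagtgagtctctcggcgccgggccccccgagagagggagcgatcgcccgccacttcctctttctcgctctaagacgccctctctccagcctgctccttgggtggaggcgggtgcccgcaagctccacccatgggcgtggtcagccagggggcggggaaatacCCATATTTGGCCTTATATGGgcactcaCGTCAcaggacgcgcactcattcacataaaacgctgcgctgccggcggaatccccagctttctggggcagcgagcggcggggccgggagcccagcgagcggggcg
Spry2: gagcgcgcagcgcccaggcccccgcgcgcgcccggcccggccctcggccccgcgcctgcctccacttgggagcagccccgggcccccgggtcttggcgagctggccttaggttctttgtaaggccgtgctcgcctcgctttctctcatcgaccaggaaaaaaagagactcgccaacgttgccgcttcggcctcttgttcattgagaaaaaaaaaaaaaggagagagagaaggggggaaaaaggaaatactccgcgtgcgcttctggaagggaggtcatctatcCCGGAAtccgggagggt
Dusp6: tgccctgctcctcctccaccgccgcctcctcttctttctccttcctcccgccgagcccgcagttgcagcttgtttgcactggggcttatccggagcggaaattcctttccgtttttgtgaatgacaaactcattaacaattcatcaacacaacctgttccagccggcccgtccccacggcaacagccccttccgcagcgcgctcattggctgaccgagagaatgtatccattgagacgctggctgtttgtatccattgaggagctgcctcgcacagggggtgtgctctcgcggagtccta

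**Figure D1:**
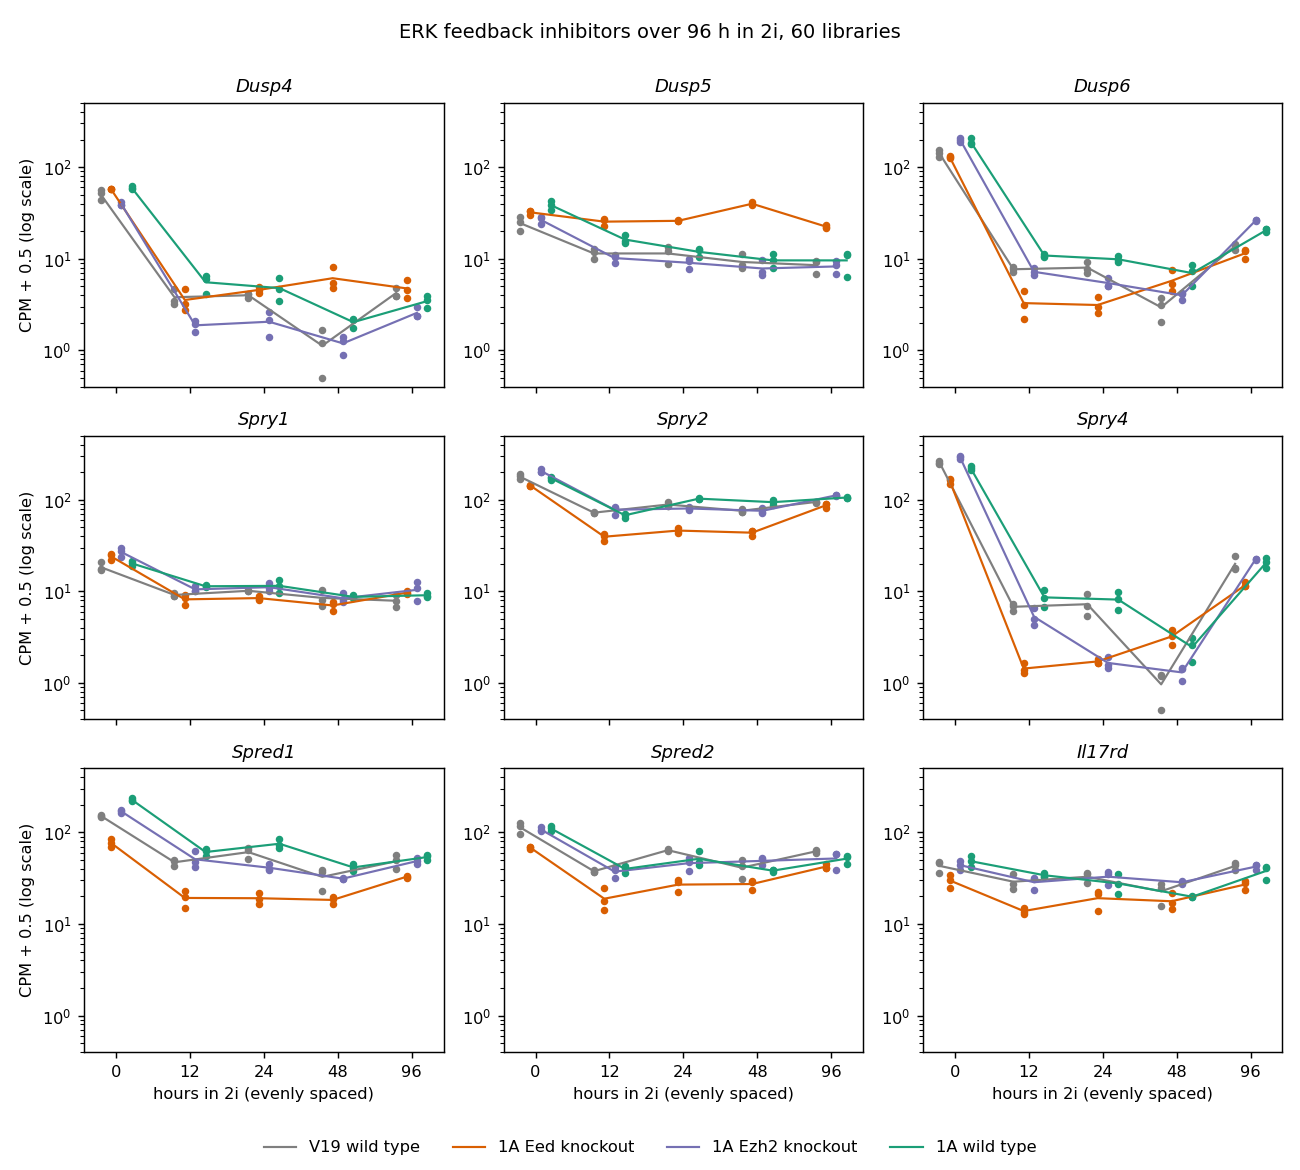
CPM plus 0.5 on a log axis against hours in 2i, with evenly spaced times, for the 9 genes. Points are single libraries and lines join the means of 3 libraries in V19 wild type, 1A Eed knockout, 1A Ezh2 knockout and 1A wild type. Spry4, Dusp6 and Dusp4 fall by more than any other gene shown, and Dusp5 in the Eed knockout stays between 22.0 and 41.0 CPM from 12 to 48 h.

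All 9 inhibitors fell within 12 h of 2i in 1A wild type, with a median log2 fold change of -1.48 beside 0.02 for all genes tested. Calls are at an adjusted p under 0.05 in edgeR's quasi-likelihood test, and 20.8% of all genes were called lower in that comparison. The fall was deepest for Spry4, Dusp6 and Dusp4. Spry4 had 8.05, 9.93 and 6.30 CPM at 12 h, against 213, 221 and 234 CPM at 0 h. Its groups are far apart, and the log2 fold change was -4.76 ± 0.14 (SE, adjusted p = 1.1e-32). Dusp6, a cytoplasmic phosphatase selective for ERK, had 10.9, 9.93 and 10.2 CPM at 12 h, against 183, 178 and 208 CPM at 0 h. The replicates at 12 h lie within 1 CPM of each other, and the log2 fold change was -4.19 ± 0.12 (SE, adjusted p = 1.1e-32). Dusp4, a nuclear MAP kinase phosphatase, had 5.52, 5.93 and 3.66 CPM at 12 h, against 57.4, 61.7 and 58.5 CPM at 0 h, a log2 fold change of -3.53 ± 0.16 (SE, adjusted p = 2.9e-24).

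The other members fell less. Spred1, which recruits the Ras GTPase activator Nf1 to the membrane, averaged 60.5 ± 5.04 CPM at 12 h and 227 ± 6.95 CPM at 0 h (SD, n = 3 each). Its close relative Spred2 averaged 39.4 ± 3.54 CPM at 12 h and 110 ± 7.38 CPM at 0 h. Spry2 averaged 67.3 ± 3.57 CPM at 12 h and 172 ± 5.74 CPM at 0 h, and Spry1 10.9 ± 0.174 CPM at 12 h and 19.7 ± 1.46 CPM at 0 h. Dusp5, a nuclear phosphatase selective for ERK, averaged 15.7 ± 1.62 CPM at 12 h and 37.9 ± 4.51 CPM at 0 h. The log2 fold changes of these 5 genes ran from -0.85 ± 0.13 for Spry1 to -1.91 ± 0.12 for Spred1, each with libraries at 12 h below all those at 0 h. Il17rd moved least, with 32.8, 35.7 and 32.1 CPM at 12 h, against 41.2, 48.5 and 54.4 CPM at 0 h. Its log2 fold change of -0.50 ± 0.17 (SE) passed the test in edgeR with an adjusted p of 0.012, and without replicate 3 of 0 h it did not, with -0.41 and an adjusted p of 0.071.

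The fall at 12 h was found in all 4 lines. In V19 wild type all 9 genes were called lower (20.8% of all genes), with a median log2 fold change of -1.61. In the Eed knockout all 9 were called lower (25.2% of all genes) with a median of -1.88, and in the Ezh2 knockout all 9 (23.9% of all genes) with a median of -1.55. The median over all genes tested was 0.02 to 0.05 in these lines. Spry4 was the member with the deepest fall in each line at 12 h. It had 6.80, 6.43 and 5.61 CPM in V19, 1.14, 0.883 and 0.781 CPM in the Eed knockout and 4.49, 3.75 and 6.08 CPM in the Ezh2 knockout. The level of Spry4 in the Eed knockout was 0.585% of its own 0 h mean and rests on 16 counts over the group.

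The genes were next compared with 0 h at 24 and 48 h. At 24 h the members called lower were 9 of 9 in 1A wild type (22.4% of all genes), 8 of 9 in V19 (19.4% of all genes), 8 of 9 in the Eed knockout (17.7% of all genes) and 9 of 9 in the Ezh2 knockout (22.2% of all genes). The member not called was Il17rd in V19, with 32.2 ± 4.14 CPM at 24 h and 42.6 ± 6.36 CPM at 0 h, and Dusp5 in the Eed knockout, with 25.5 ± 0.297 CPM at 24 h and 31.6 ± 1.87 CPM at 0 h (SD, n = 3 each). Their adjusted p was 0.059 each in edgeR, and DESeq2 called both, Il17rd with an adjusted p of 0.04 and Dusp5 with 0.038. Il17rd in the Ezh2 knockout, with a log2 fold change of -0.42 and an adjusted p of 0.033 in edgeR, was lost without replicate 1 or 3 of 0 h or replicate 2 of 24 h, with adjusted p-values of 0.06, 0.15 and 0.16. At 48 h all 9 were called lower in 1A wild type (26.2% of all genes), in V19 (24.2% of all genes) and in the Ezh2 knockout (24% of all genes). At that time 8 of 9 were called lower in the Eed knockout (21.1% of all genes) and Dusp5 was called higher. All comparisons with 0 h within a line share the same 0 h libraries.

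Spry4 was lowest at 48 h in V19 and the Ezh2 knockout. It had 0.689, 0 and 0.706 CPM in V19, which is 6 counts over the group, and 0.549, 0.904 and 0.956 CPM in the Ezh2 knockout, which is 15 counts. Its level was 1.2, 2.60 and 2.08 CPM in 1A wild type, from 28 counts, and in the Eed knockout 3.28, 2.07 and 2.79 CPM, from 43 counts. The log2 fold changes of Spry4 against 0 h were -8.85 ± 0.22 in V19, -5.89 ± 0.17 in the Eed knockout, -8.44 ± 0.19 in the Ezh2 knockout and -6.82 ± 0.18 in 1A wild type (SE). Counts this low limit the precision of these folds, and the SE, derived from the test statistic, understates the uncertainty of groups with so few counts. Dusp6 kept 1.74% of its 0 h mean in V19, 4.08% in the Eed knockout, 1.76% in the Ezh2 knockout and 3.41% in 1A wild type. Dusp4 kept 1.24% in V19, 9.84% in the Eed knockout, 1.77% in the Ezh2 knockout and 2.58% in 1A wild type. In V19 these values rest on 29 counts over the group for Dusp6 and 8 for Dusp4, and in the Ezh2 knockout on 13 for Dusp4. Spry2 kept far more, with 42.3% in V19, 30.3% in the Eed knockout, 36.5% in the Ezh2 knockout and 54.5% in 1A wild type.

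**Figure D2:**
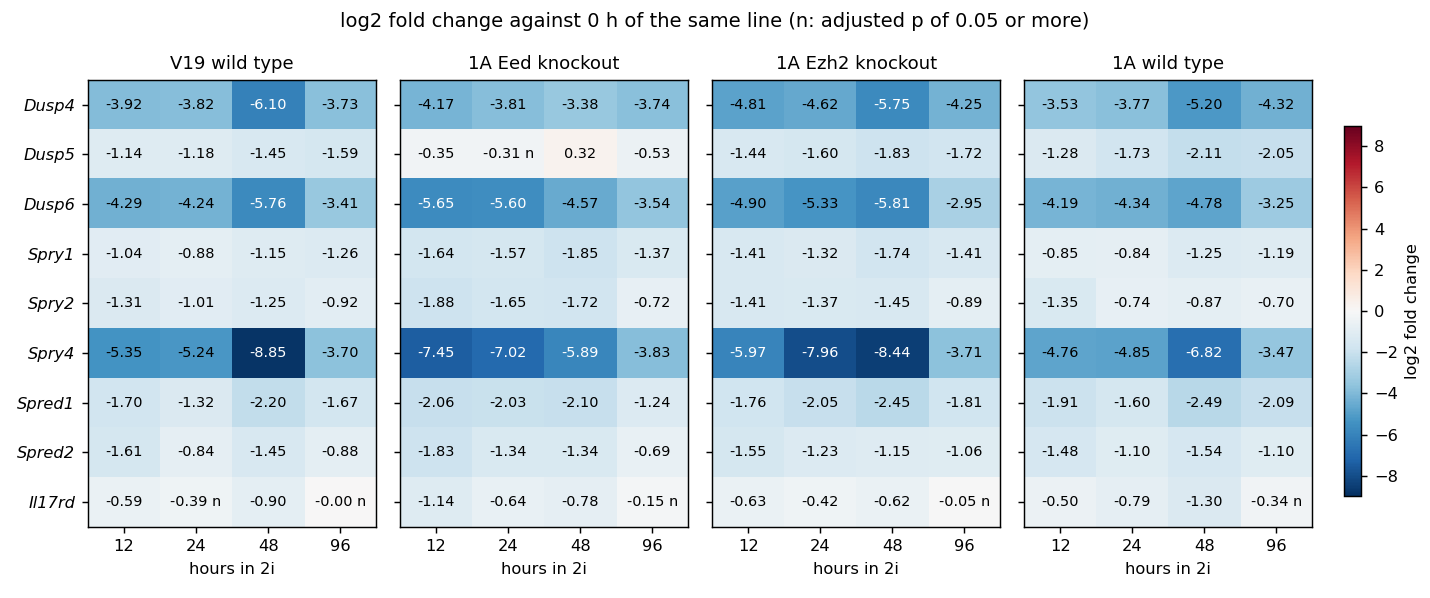
Log2 fold change of each gene at 12, 24, 48 and 96 h against 0 h of the same line, coloured from blue (lower) to red (higher), in V19 wild type, 1A Eed knockout, 1A Ezh2 knockout and 1A wild type. An n marks a value with an adjusted p of 0.05 or more. Values run from -8.85 for Spry4 in V19 at 48 h to 0.32 for Dusp5 in the Eed knockout at 48 h.

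Between 48 and 96 h, with both inhibitors renewed daily, part of the expression came back from the level at 48 h. This interval was chosen with earlier results of these data known. In 1A wild type 6 of 9 genes were higher at 96 h than at 48 h (16.2% of all genes), with a median log2 fold change of 0.44 beside 0.02 for all genes. In V19 there were 7 of 9 (16.8% of all genes), in the Eed knockout 7 of 9 (16.9% of all genes) and in the Ezh2 knockout 6 of 9 (12.3% of all genes), with medians of 0.57 in V19, 0.65 in the Eed knockout and 0.57 in the Ezh2 knockout. Spry4, Dusp6, Spred1 and Il17rd were called higher in all 4 lines.

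Spry4 had the largest return among the members in every line. It had 20.4, 22.5 and 17.3 CPM at 96 h in 1A wild type, against 1.2, 2.60 and 2.08 CPM at 48 h. In V19 it had 17.7, 17.1 and 23.6 CPM at 96 h, against 0.689, 0 and 0.706 CPM at 48 h, and in the Ezh2 knockout 22.3, 21.7 and 22.2 CPM at 96 h, against 0.549, 0.904 and 0.956 CPM at 48 h. The levels at 96 h in these 3 lines overlap. The Eed knockout reached 12.0, 10.8 and 10.9 CPM at 96 h, against 3.28, 2.07 and 2.79 CPM at 48 h. The log2 fold changes were 5.15 ± 0.31 in V19, 2.06 ± 0.21 in the Eed knockout, 4.73 ± 0.24 in the Ezh2 knockout and 3.35 ± 0.22 in 1A wild type (SE), with adjusted p-values from 5.7e-11 to 7.7e-22 in edgeR. These SE values understate the uncertainty most in V19 and the Ezh2 knockout, with 6 and 15 counts over the group at 48 h. At 96 h Spry4 was at 7.64% of the 0 h mean in V19, 7.03% in the Eed knockout, 7.63% in the Ezh2 knockout and 9.01% in 1A wild type.

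Dusp6 followed the same course. It had 13.8, 14.1 and 11.9 CPM at 96 h in V19, against 3.22, 1.53 and 2.59 CPM at 48 h, and 12.1, 9.33 and 11.6 CPM at 96 h in the Eed knockout, against 4.74, 7.01 and 3.95 CPM at 48 h. In the Ezh2 knockout Dusp6 had 25.8, 25.2 and 26.1 CPM at 96 h, against 3.66, 3.75 and 3.06 CPM at 48 h, and in 1A wild type 18.9, 20.6 and 20.4 CPM at 96 h, against 6.85, 7.97 and 4.58 CPM at 48 h. No library at 48 h reached one at 96 h of the same line. At 96 h Dusp6 was at 9.43% of the 0 h mean in V19, 8.60% in the Eed knockout, 12.9% in the Ezh2 knockout and 10.5% in 1A wild type.

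Dusp4 was called higher at 96 h in 3 lines. It passed the test in V19, with 3.73 ± 0.505 CPM at 96 h and 0.622 ± 0.591 CPM at 48 h, and in the Ezh2 knockout, with 2.06 ± 0.361 CPM at 96 h and 0.691 ± 0.276 CPM at 48 h (SD, n = 3 each). The levels at 48 h rest on 8 counts over the group in V19 and 13 in the Ezh2 knockout. Dusp4 had 3.02, 3.43 and 2.39 CPM at 96 h in 1A wild type, against 1.71, 1.63 and 1.25 CPM at 48 h. The groups do not overlap, but its adjusted p of 0.046 in edgeR was 0.062 in DESeq2 and lay at 0.088 to 0.14 without any of 5 of the 6 libraries. Dusp4 did not pass the test in the Eed knockout, with 4.24 ± 1.08 CPM at 96 h and 5.63 ± 1.79 CPM at 48 h.

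Il17rd, the receptor-level inhibitor, was the gene that came closest to its starting level. In V19 it had 43.7, 38.4 and 45.5 CPM at 96 h, against 24.4, 15.3 and 27.0 CPM at 48 h, and its mean at 0 h was 42.6 CPM. In 1A wild type it had 41.9, 40.8 and 29.7 CPM at 96 h, against 19.4, 19.5 and 19.1 CPM at 48 h, and its mean at 0 h was 48.0 CPM. The log2 fold change of Il17rd from 48 to 96 h was 0.89 ± 0.19 in V19, 0.63 ± 0.19 in the Eed knockout, 0.57 ± 0.17 in the Ezh2 knockout and 0.95 ± 0.19 in 1A wild type (SE). The call in the Eed knockout was lost without replicate 2 of 48 h, with 0.49 and an adjusted p of 0.073. Against 0 h, Il17rd at 96 h did not pass the test in any line, with log2 fold changes of -0.00 ± 0.17 in V19, -0.15 ± 0.17 in the Eed knockout, -0.05 ± 0.16 in the Ezh2 knockout and -0.34 ± 0.16 in 1A wild type (SE). In 1A wild type the adjusted p was 0.079 in edgeR and 0.035 with no filter on low counts, and it was called without replicate 1 of 0 h, with -0.45 and an adjusted p of 0.04. At 96 h the other 8 genes were still called lower than at 0 h in all 4 lines. That made 8 of 9 in V19 (22.7% of all genes), in the Eed knockout (16.4% of all genes), in the Ezh2 knockout (20.7% of all genes) and in 1A wild type (23.5% of all genes).

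The Spred genes and Spry2 were also called higher at 96 h in most lines. Spred1 was called higher in all 4 lines, with log2 fold changes of 0.53 ± 0.14 in V19, 0.86 ± 0.15 in the Eed knockout, 0.64 ± 0.13 in the Ezh2 knockout and 0.40 ± 0.14 in 1A wild type (SE). Spred2 was called higher in V19, in the Eed knockout and in 1A wild type, with log2 values of 0.44 to 0.65, and had 0.09 ± 0.14 (SE) in the Ezh2 knockout. The calls of Spred1 and Spred2 in V19 were lost without replicate 2 of 48 h, with 0.37 and 0.42 and adjusted p-values of 0.069 and 0.058, and 5 of 9 members were then called. They were also lost in 1A wild type without replicate 1 or 2 of 48 h or replicate 1 or 2 of 96 h, with adjusted p-values of 0.053 to 0.096, and 3 of 9 members were then called, namely Spry4, Dusp6 and Il17rd. Spry2 averaged 94.1 ± 1.34 CPM at 96 h and 75.3 ± 3.85 CPM at 48 h in V19, 86.6 ± 4.61 and 43.2 ± 2.93 CPM in the Eed knockout, and 111 ± 1.89 and 75.3 ± 4.92 CPM in the Ezh2 knockout at the same times, and was called higher in each. Spry2 in 1A wild type had 105 ± 1.51 CPM at 96 h and 93.6 ± 5.69 CPM at 48 h, with an adjusted p of 0.072 (SD, n = 3 each). In the wild-type lines 48 h was a low point rather than the end of a steady fall. Spred1 averaged 74.7 CPM at 24 h and 53.3 CPM at 96 h in 1A wild type, and 60.4 and 47.9 CPM in V19. Spred2 averaged 51.0 and 51.2 CPM in 1A wild type, and 63.4 and 61.5 CPM in V19, at these times. In both knockouts the means of Spred1 and Spred2 were higher at 96 h than at 24 h.

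Dusp5 and Spry1 were not called in 3 lines. The log2 fold change of Dusp5 from 48 to 96 h was -0.14 ± 0.22 in V19, 0.11 ± 0.20 in the Ezh2 knockout and 0.06 ± 0.20 in 1A wild type (SE), and that of Spry1 was -0.11 ± 0.18, 0.33 ± 0.15 and 0.06 ± 0.16 in the same lines. Their groups overlap. Spry1 in the Ezh2 knockout was called without replicate 1 of 96 h, with 0.49 and an adjusted p of 0.025. In the Eed knockout Spry1 was called higher, with 9.16 ± 0.299 CPM at 96 h and 6.52 ± 0.783 CPM at 48 h (SD, n = 3 each). The call was lost without replicate 1 of 48 h, with an adjusted p of 0.12.

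**Figure D3:**
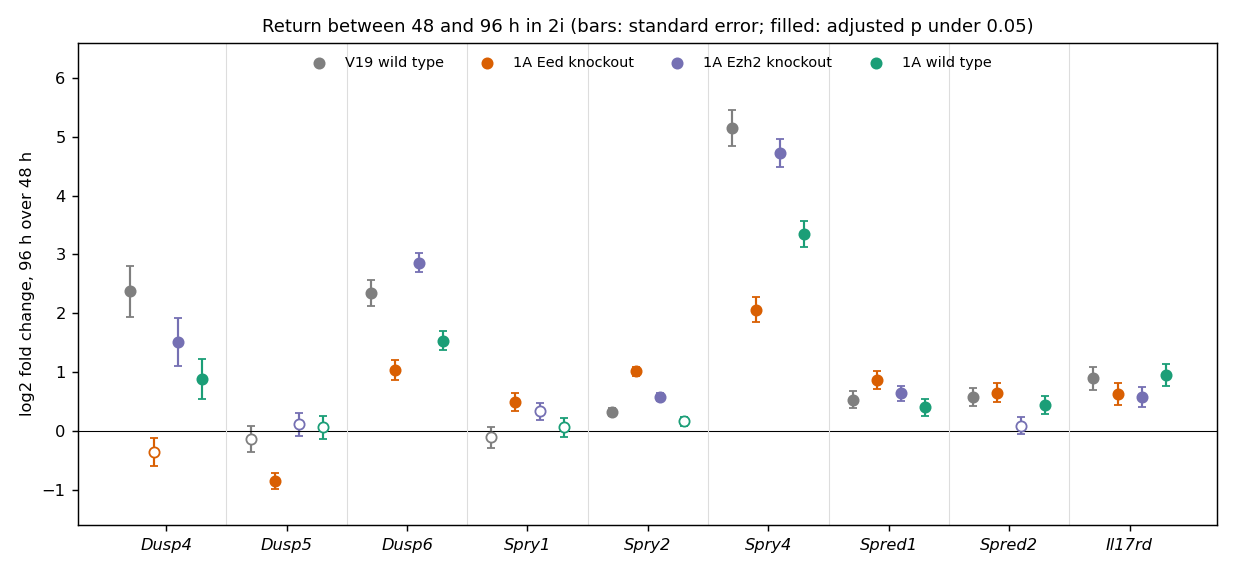
Log2 fold change of each gene at 96 h over 48 h, with bars for the standard error and filled points for an adjusted p under 0.05, in V19 wild type, 1A Eed knockout, 1A Ezh2 knockout and 1A wild type. Spry4 is highest in each line, from 2.06 in the Eed knockout to 5.15 in V19, and Dusp5 in the Eed knockout lies at -0.85.

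Dusp5 took a course of its own in the Eed knockout. It had 29.4, 32.6 and 32.8 CPM at 0 h, 25.9, 26.8 and 22.0 CPM at 12 h, 25.1, 25.7 and 25.5 CPM at 24 h, 37.9, 41.0 and 39.2 CPM at 48 h and 21.3, 22.8 and 21.7 CPM at 96 h. In 1A wild type Dusp5 had 33.2, 42.1 and 38.4 CPM at 0 h, 14.4, 15.2 and 17.5 CPM at 12 h, 11.8, 12.4 and 9.96 CPM at 24 h, 7.37, 9.11 and 10.8 CPM at 48 h and 10.5, 10.9 and 5.87 CPM at 96 h. Summed over 9 primitive endoderm markers, the Eed knockout had 906 to 3024 CPM over all times, against 153 to 254 CPM in 1A wild type, and over 8 trophoblast markers 1564 to 5460 CPM, against 269 to 828 CPM. Within the Eed knockout the median sum at 0, 12, 24, 48 and 96 h was 2978, 1486, 2506, 1944 and 963 CPM for the primitive endoderm markers and 1881, 2988, 4315, 5080 and 2708 CPM for the trophoblast markers. There the trophoblast sum, like Dusp5, was highest at 48 h, but it rose from 0 to 24 h while Dusp5 did not. The trophoblast sum was also highest at 48 h in the other lines, with medians of 827 CPM in 1A wild type, 319 in V19 and 451 in the Ezh2 knockout. Dusp5 averaged 9.10, 8.73 and 7.33 CPM in those groups. The part of these markers in the course of Dusp5 was not tested. From 12 h on, every library of the Eed knockout lies above every library of 1A wild type, and at 0 h every one lies below. The rise of Dusp5 at 48 h over 0 h in the Eed knockout, with a log2 fold change of 0.32 ± 0.13 (SE, adjusted p = 0.045), did not hold in all settings. DESeq2 and a replicate block kept the call, and the libraries of these times do not overlap. In edgeR the adjusted p was 0.051 with RLE size factors, 0.1 with no filter on low counts and 0.11 with a filter at 1 CPM. It was 0.056 to 0.15 when any 1 of the 6 libraries was left out. The authors' RUV-normalized values (RUV, removal of unwanted variation) gave -0.13. The 12 h fall of Dusp5 in the Eed knockout, -0.35 ± 0.14 (SE, adjusted p = 0.033), was likewise lost without replicate 2 or 3 of 0 h or replicate 3 of 12 h, with adjusted p-values of 0.082, 0.09 and 0.17. The drop from 48 to 96 h was larger, at -0.85 ± 0.14 (SE, adjusted p = 2.6e-06), and all 3 libraries at 96 h were below all 3 at 48 h. In V19 and the Ezh2 knockout Dusp5 at 96 h overlapped 1A wild type, with 8.01 ± 1.5 CPM in V19 and 7.74 ± 1.31 CPM in the Ezh2 knockout, against 9.08 ± 2.79 CPM in 1A wild type (SD, n = 3 each).

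**Figure D4:**
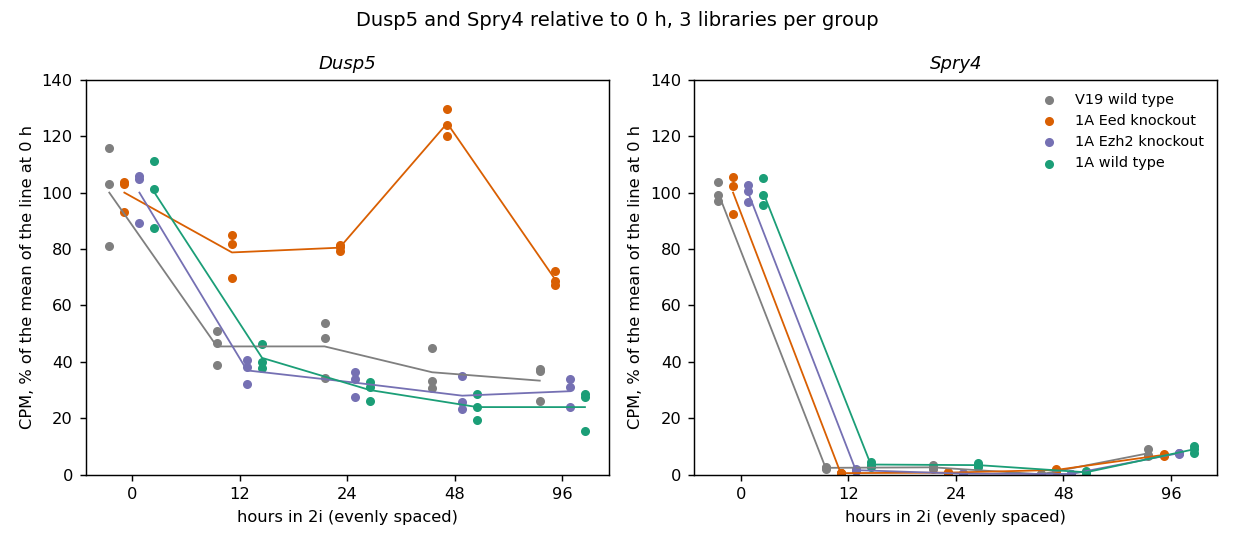
CPM of Dusp5 and Spry4 in each library as a percent of the mean of the same line at 0 h, against hours in 2i with evenly spaced times. Points are 3 libraries per group and lines join the means. Dusp5 in the Eed knockout is at 78.8% at 12 h and 125% at 48 h, against 41.4 and 24.0% in 1A wild type at those times.

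The lines differed in how far the inhibitors fell at 12 h. The difference of the 12 h response was tested as an interaction term against 1A wild type, whose libraries all 3 tests share. Between V19 and 1A wild type 0 of 9 members differed in edgeR and in DESeq2 (0.119% of all genes), and only Spry4 had an unadjusted p under 0.05. These V19 differences ran from -0.59 ± 0.21 for Spry4 to 0.21 ± 0.17 for Spred1 on the log2 scale (SE). In the Eed knockout 5 of 9 members differed (11.2% of all genes). Spry4 fell further than in 1A wild type by -2.69 ± 0.31 (SE, adjusted p = 8.8e-09), Dusp6 by -1.46 ± 0.22 (SE, adjusted p = 4.8e-06), Spry1 by -0.78 ± 0.19 (SE, adjusted p = 0.0042) and Spry2 by -0.52 ± 0.10 (SE, adjusted p = 0.00025). Dusp5 moved the other way, with a smaller fall than in 1A wild type, by 0.93 ± 0.20 (SE, adjusted p = 0.0013).

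In the Ezh2 knockout 3 of 9 members differed from 1A wild type in the 12 h response (2.91% of all genes). They were Spry4 with -1.21 ± 0.21 (SE, adjusted p = 0.00018), Dusp4 with -1.28 ± 0.30 (SE, adjusted p = 0.0073) and Dusp6 with -0.71 ± 0.18 (SE, adjusted p = 0.014). All were deeper falls. With the authors' RUV-normalized values none of these 3 passed, with adjusted p-values of 0.22 to 0.35 and values of -0.63 to -1.16. The call of Dusp6 was also lost without replicate 2 of the Ezh2 knockout at 12 h and without replicate 1 of 1A wild type at 12 h, with -0.66 and -0.67 and adjusted p-values of 0.061 and 0.064. At 12 h Dusp4 had 1.07, 1.61 and 1.44 CPM in the Ezh2 knockout, against 5.52, 5.93 and 3.66 CPM in 1A wild type. Dusp6 had 6.64, 6.08 and 7.36 CPM in the Ezh2 knockout at that time, and its 3.99, 2.65 and 1.69 CPM in the Eed knockout were lower still.

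For the change from 48 to 96 h, 0 of 9 members differed between V19 and 1A wild type in edgeR and in DESeq2 (0.0928% of all genes). Spry4, Dusp6 and Dusp4 had an unadjusted p under 0.05 there, with 1.80 ± 0.54, 0.82 ± 0.29 and 1.49 ± 0.60 on the log2 scale (SE), and the RUV-normalized values called Spry4, with 1.86 and an adjusted p of 0.026. Between the Eed knockout and 1A wild type 4 of 9 differed (26.8% of all genes). Spry4 returned less than in 1A wild type, by -1.29 ± 0.36, and Spry2 returned more, by 0.84 ± 0.10 (SE). Dusp4 differed by -1.23 ± 0.41 and Dusp5 by -0.90 ± 0.24 (SE). The adjusted p-values of these 4 genes were 2.3e-08 to 0.022 in edgeR. For Dusp5 this was a drop in the Eed knockout, with -0.85, beside no call in 1A wild type, with 0.06. Dusp4 was not called in the Eed knockout, with -0.36, and was called higher in 1A wild type, with 0.88. In the Eed knockout the mean of Spry4 was lowest at 12 h, with 0.935 CPM, and had risen to 2.71 CPM by 48 h. In 1A wild type it fell from 8.09 CPM at 12 h to 1.96 CPM at 48 h. Part of the rise of Spry4 in the Eed knockout thus lies before this interval. The call of Spry4 was lost without replicate 1 of 1A wild type at 48 h, with -0.95 and an adjusted p of 0.065. That of Dusp4 was lost without replicate 3 of the Eed knockout at 48 h (-0.99), replicate 2 of 1A wild type at 48 h (-1.24) or replicate 2 of 1A wild type at 96 h (-1.12), with adjusted p-values of 0.082, 0.055 and 0.061. On RUV-normalized values Dusp4 and Dusp5 had -1.16 and -0.62, with adjusted p-values of 0.1 and 0.075. In the Ezh2 knockout 3 of 9 differed (11.8% of all genes), each with a larger return, by 1.33 ± 0.24 for Dusp6, 0.40 ± 0.10 for Spry2 and 1.38 ± 0.43 for Spry4 (SE, adjusted p-values of 0.00019 to 0.031 in edgeR). That of Spry2 was lost with no filter on low counts, with 0.37 and an adjusted p of 0.17. The call of Spry4 was also lost, without replicate 1 or 2 of the Ezh2 knockout at 48 h (1.19 and 1.49), replicate 1 of the Ezh2 knockout at 96 h (1.37) or, in the 48 h group of 1A wild type, replicate 2 (0.97), with adjusted p-values of 0.058 to 0.27.

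**Figure D5:**
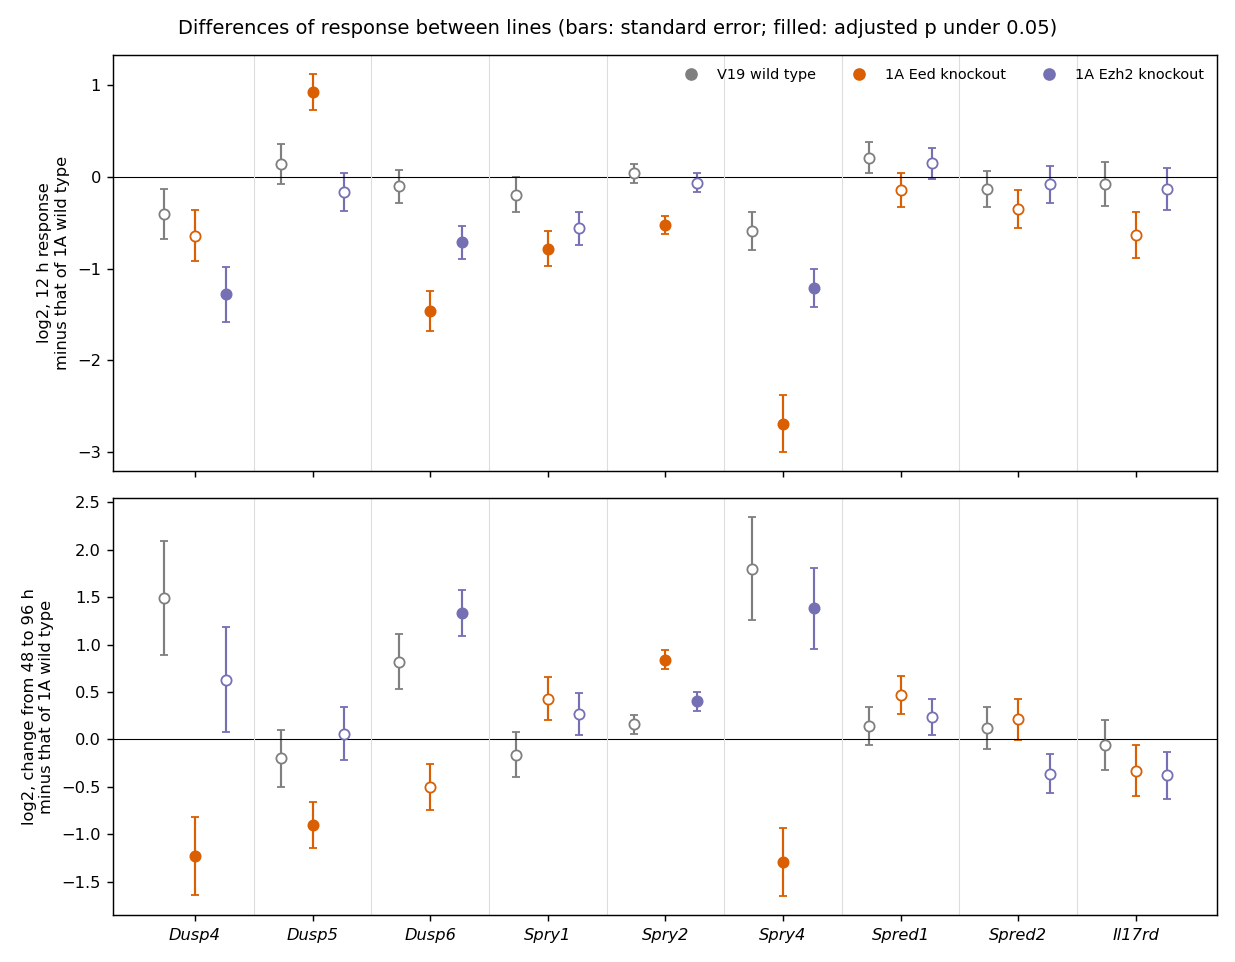
Difference of the 12 h response (top) and of the change from 48 to 96 h (bottom) from that of 1A wild type, on the log2 scale, for V19 wild type, 1A Eed knockout and 1A Ezh2 knockout. Bars are standard errors, and filled points have an adjusted p under 0.05. The most negative value at 12 h is -2.69 for Spry4 in the Eed knockout, where Dusp5 lies at 0.93.

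Levels were next compared between lines at the same time, before 2i and at its end. In V19 at 0 h, 3 of 9 members were lower than in 1A wild type (10.5% of all genes, either direction). Dusp5 had 24.0 ± 4.21 CPM in V19 and 37.9 ± 4.51 CPM in 1A wild type, Dusp6 had 140 ± 12.1 and 190 ± 16.2 CPM, and Spred1 had 152 ± 3.31 and 227 ± 6.95 CPM in the same lines (SD, n = 3 each). The log2 differences were -0.65 ± 0.14, -0.43 ± 0.09 and -0.58 ± 0.12 (SE). On RUV-normalized values Dusp5 (-0.53) and Dusp6 (-0.59) lost the call, with adjusted p-values of 0.055 and 0.07 in limma, which left 1 of 9 called. At 96 h only Dusp6 differed (7.45% of all genes, either direction), with 13.8, 14.1 and 11.9 CPM in V19, against 18.9, 20.6 and 20.4 CPM in 1A wild type. Dusp4, on chromosome 8, did not pass the test at 0 h, with a log2 difference of -0.24 ± 0.12 (SE), while the 812 tested genes of chromosome 8 had a median difference of 0.40 between V19 and 1A wild type, beside -0.00 for all genes. What part that median has in the value of Dusp4 was not tested.

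In the Eed knockout at 0 h, 6 of 9 members were lower than in 1A wild type on the deposited counts (49.6% of all genes, either direction), and the direction of 4 of them, Dusp6, Spry2, Spry4 and Spred2, flipped with the authors' RUV-normalized values. Spred1 had 76.7, 68.7 and 83.4 CPM in the Eed knockout, against 228, 234 and 220 CPM in 1A wild type, with a log2 difference of -1.58 ± 0.12 (SE, adjusted p = 4.4e-16) on counts. On RUV-normalized values Spred1 lost the call, with -0.38 and an adjusted p of 0.07 in limma. Dusp5, not called on counts (-0.26 ± 0.13, SE, adjusted p = 0.1 in edgeR), was the member called lower there, with -1.15 and an adjusted p of 2.2e-06 in limma. Il17rd was lower on counts by log2 -0.70 ± 0.17 (SE) and had -0.07 on RUV-normalized values. On counts Dusp6 had -0.56 ± 0.09, Spry2 -0.27 ± 0.07, Spry4 -0.48 ± 0.10 and Spred2 -0.70 ± 0.14 (SE), where the RUV-normalized values gave 0.52, 0.42, 0.86 and 0.06. In that RUV-normalized table Eed itself differed between the Eed knockout and 1A wild type by only -0.61 on the log2 scale, where the counts gave -3.94. For Ezh2 in the Ezh2 knockout both tables gave alike values, -3.69 from RUV-normalized values and -3.67 from counts.

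At 96 h, 5 of 9 members were lower in the Eed knockout than in 1A wild type on counts and Dusp5 was higher (55.3% of all genes, either direction), and the 5 lower genes, Dusp6, Spry2, Spry4, Spred1 and Il17rd, flipped with the RUV-normalized values. Their log2 differences on counts were -0.85 ± 0.13, -0.28 ± 0.07, -0.84 ± 0.15, -0.72 ± 0.13 and -0.50 ± 0.17 (SE), where the RUV-normalized values gave 0.40, 0.51, 0.74, 0.68 and 0.25. The call of Il17rd was lost without replicate 2 of the Eed knockout (-0.40) or replicate 1 of 1A wild type (-0.41), with adjusted p-values of 0.07 and 0.071. Dusp5 had 21.3, 22.8 and 21.7 CPM in the Eed knockout, against 10.5, 10.9 and 5.87 CPM in 1A wild type, a log2 difference of 1.26 ± 0.17 (SE, adjusted p = 5.8e-09), and 0.24 with an adjusted p of 0.38 on RUV-normalized values. Markers of other cell types also differed between these lines. Over all 5 times, the summed level of 9 primitive endoderm markers was 906 to 3024 CPM in the Eed knockout, against 153 to 254 CPM in 1A wild type. For 8 trophoblast markers it was 1564 to 5460 CPM in the Eed knockout, against 269 to 828 CPM in 1A wild type, and for 10 embryonic stem cell markers 3288 to 5706 CPM, against 5891 to 9549 CPM. Each of these 27 markers had a count in both lines. For 8 fibroblast markers the sum was 17.7 to 34.1 CPM in the Eed knockout, against 4.71 to 17.8 CPM in 1A wild type. Some fibroblast markers were at 0 in groups of both lines. Examples are Postn and Lum in 1A wild type at 0 h, and Dcn and Lum in the Eed knockout at 48 h. The part of these marker differences in the values of the inhibitors was not tested.

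In the Ezh2 knockout at 0 h, 3 of 9 members were lower than in 1A wild type and 3 higher (22.8% of all genes, either direction). Lower were Dusp4, with 37.8, 37.9 and 41.6 CPM in the Ezh2 knockout, against 57.4, 61.7 and 58.5 CPM in 1A wild type, and Dusp5 and Spred1 with log2 differences of -0.54 ± 0.14 and -0.43 ± 0.11 (SE). Higher were Spry1, Spry2 and Spry4, with 0.43 ± 0.12, 0.27 ± 0.07 and 0.38 ± 0.10 (SE). With no filter on low counts Spry1 and Spry2 lost the call, with adjusted p-values of 0.05 and 0.099 in edgeR. On RUV-normalized values Spry4 (0.47), Dusp4 (-0.61) and Spred1 (-0.35) lost it, with adjusted p-values of 0.29, 0.27 and 0.092 in limma. At 96 h only Dusp6 differed (13.2% of all genes, either direction), with 25.8, 25.2 and 26.1 CPM in the Ezh2 knockout, against 18.9, 20.6 and 20.4 CPM in 1A wild type. The libraries do not overlap, but the adjusted p of 0.034 in edgeR rose to 0.054 to 0.15 when any 1 of the 6 libraries was left out.

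Other genes of the pathway moved in both directions in 1A wild type. Their lists, like the members, were chosen with earlier results of these data known. Over all genes, 20.8% were lower at 12 h than at 0 h and 20% higher. Of 12 tested transcription factors that respond to ERK, 10 were lower at 12 h than at 0 h and none higher, with a median log2 fold change of -0.98. Among them Egr1 averaged 1.23 ± 0.529 CPM at 12 h and 69.6 ± 3.77 CPM at 0 h, Myc 10.6 ± 1.66 and 169 ± 4.26 CPM, and the ETS factor Etv4 16.5 ± 2.28 and 223 ± 7.42 CPM (SD, n = 3 each). Of 16 genes of the Ras, Raf, MEK and ERK cascade 3 were lower and 1 higher, and the log2 fold changes of the called Rps6ka1 and Braf were -0.84 and -0.53. Of 14 genes of the FGF input 6 were lower and 2 higher. Lower were Shc1 with -1.05, the adaptor Grb2 with -0.61 and Fgf15 with -2.11. Among 10 relatives of the members, 4 were lower and 2 higher. Spred3 fell by 2.50 and Dusp1 fell by 0.76 on the log2 scale, while Dusp8, a phosphatase that acts mainly on JNK and p38, had 1.56. Of 11 other negative regulators 6 were lower and 2 higher. The receptor inhibitor Errfi1 had -0.72 and the ubiquitin ligase Cbl -1.02, while the Raf inhibitor Pebp1 had 0.34.

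From 48 to 96 h in 1A wild type, where 16.2% of all genes were higher and 15.3% lower, 4 of the 12 transcription factors were higher and 1 was lower. Etv4 averaged 62.3 ± 3.43 CPM at 96 h and 10.5 ± 1.22 CPM at 48 h, Etv1 22.5 ± 1.23 and 4.75 ± 0.88 CPM, and Myc 17.4 ± 2.08 and 7.05 ± 1.18 CPM (SD, n = 3 each). Of the cascade 1 gene was higher and 4 lower, among them Mapk3 with -0.77 and Hras with -0.64 on the log2 scale, while Braf had 0.87. Of the FGF input 2 genes were higher and 2 lower, with -1.47 for Fgfr2, -0.33 for Fgf4 and 0.40 for the phosphatase Ptpn11. Of the other negative regulators 5 were higher and 1 lower, among them Nf1 with 0.97, Cbl with 0.82 and Lrig1 with 0.63. The median log2 fold change of these 11 regulators was 0.27 in 1A wild type. In V19 3 were higher and 1 lower (16.8 and 17.3% of all genes), with a median of 0.04. In the Eed knockout 1 was higher and 3 lower (16.9 and 18.4% of all genes), with a median of -0.17. In the Ezh2 knockout 0 were higher and 4 lower (12.3 and 11.9% of all genes), with a median of -0.29. Of the relatives Spred3 was higher with 0.86 and Dusp8 lower with -0.73.

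Over the 20 groups, Dusp6 and Spry4 had the most alike courses among the members, with a Pearson correlation of log2 group means of 0.983. These correlations are descriptions over points that share libraries and 0 h groups. Among 8 of the 9 genes, leaving out Dusp5, pairwise correlations ran from 0.44 for Dusp4 with Il17rd to 0.98 for Dusp6 with Spry4. Dusp5 correlated with the other 8 at -0.15 with Il17rd to 0.75 with Dusp4. Outside the members, the genes most like Dusp6 were Utf1 with 0.98 and Zfp423 with 0.970, and Utf1 and Etv4 were next after Dusp6 for Spry4, with 0.968 and 0.961. Most like Dusp4 were Nrg1 with 0.959, Maco1 with 0.953 and Egr1 with 0.950. Most like Dusp5 were Rhbdf1 with 0.961, Pou3f1 with 0.958 and Mdfi with 0.953. For Spry2 they were Ctbp2 with 0.965 and Zbtb45 with 0.955, and for Spry1 Cdc20 with 0.932, Ctnnal1 with 0.928 and Ccdc3 with 0.914. For Spred1 they were Hmces with 0.973 and Nol10 with 0.972, for Spred2 Polr1b with 0.972, Kpnb1 with 0.961 and Scrib with 0.960, and for Il17rd Prdm4 with 0.947, Neurl4 with 0.946 and Dhx9 with 0.941. Over the 60 single libraries Scrib and Prdm4 ranked 230 and 77, so their likeness rests on group means.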

How the data were processed

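Polyadenylated RNA of 60 libraries was sequenced, in 20 groups of line and time with 3 libraries each. Per the submitters' processing notes, STAR 2.7.10b, featureCounts 2.0.3, MultiQC 1.14 and DESeq2 were named with the builds GRCm39 and mm39. The authors deposited raw read counts per gene, with exon lengths, for 50559 genes. A further table deposited by the authors holds RUV-normalized counts rounded to whole numbers, treated here as a score because its settings are not given in the sources used here. Each was matched to samples by its column names.

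CPM is the count scaled to a common library size by the library total and its TMM factor. Counts were tested with edgeR 4.0.16 in R 4.3.3, by quasi-likelihood with TMM scaling, in 1 fit of all 60 libraries and 20 groups with 40 residual degrees of freedom. Genes were kept by filterByExpr at its settings of 10 counts per library and 15 in total, and p-values were adjusted by the Benjamini-Hochberg method over 15083 genes in each of 32 comparisons. An adjusted p under 0.05 was called, and the standard error was taken as the size of the log2 fold change over the square root of F. For groups with few counts this standard error understates the uncertainty. A fit of this type was tried on simulated counts for the groups of single comparisons only. This does not check the fit of all 60 libraries or the interaction terms. Totals of 2561169 to 11065948 counts, with a median of 6055990, limit the precision at low levels.

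Settings also tried were DESeq2 1.42.0, RLE scaling, all genes unfiltered, only genes averaging 1 CPM or more, the replicate number as a block, a fit of the compared groups alone, limma 3.58.1 on log2 of the RUV-normalized values plus 1, and each library left out. Leaving out the 5 libraries that stood apart was chosen after seeing the data. No pair of replicates had the same counts. In the closest pair, replicates 1 and 3 of V19 at 0 h, the chi-square per degree of freedom was 1.13, little above the spread of counting alone. How independent the replicates were cannot be told from this.

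The 9 genes, the gene lists, the 48 to 96 h comparison and the tests were chosen with earlier results of these data known. Of the listed pathway genes, up to 3 called ones with the smallest adjusted p per list are named, and for likeness the 3 genes with the highest correlation over 20 groups at a mean of at least 5 CPM. Likeness used log2 of CPM plus 0.5 and left out predicted, RIKEN and pseudogene symbols. Markers were fixed lists of 10 embryonic stem cell, 9 primitive endoderm, 8 trophoblast and 8 fibroblast genes. Some genes that these rules select are not reported here.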

Additional observations from a re-analysis of the deposited data

Results flagged for a closer look

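These results were singled out because a response in a knockout line differed from that in 1A wild type by a test of the difference itself. All share the libraries of 1A wild type, and each value is the knockout's log2 change minus that of 1A wild type. At 12 h against 0 h the Eed knockout differed by -2.69 for Spry4, -1.46 for Dusp6, -0.78 for Spry1, -0.52 for Spry2 and 0.93 for Dusp5. Spry4, Dusp6, Spry1 and Spry2 fell further there, and Dusp5 fell less. The Ezh2 knockout at 12 h differed by -1.21 for Spry4, -1.28 for Dusp4 and -0.71 for Dusp6. From 48 to 96 h the Eed knockout differed by -1.29 for Spry4, -1.23 for Dusp4, -0.90 for Dusp5 and 0.84 for Spry2. The Ezh2 knockout differed over the same interval by 1.38 for Spry4, 1.33 for Dusp6 and 0.40 for Spry2. The return of Spry2 was larger in both knockouts, although its difference in the Ezh2 knockout was lost with no filter on low counts, at 0.37 with an adjusted p of 0.17 in edgeR. From 48 to 96 h Spry4 returned less in the Eed knockout and more in the Ezh2 knockout. In the Eed knockout its rise had begun before 48 h, with means of 0.935 CPM at 12 h and 2.71 CPM at 48 h. Spry4 rests on 16 counts over the Eed knockout group at 12 h and on 15 counts over the Ezh2 knockout group at 48 h.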

How the results depend on the processing

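Of 288 results of a member in a comparison, 287 kept their direction and side of the threshold with a replicate block. The exception was Dusp4 from 48 to 96 h in 1A wild type, at 0.87 with an adjusted p of 0.05. Pooled over all lines and times, deviations of same-numbered libraries had a median correlation of 0.000848, and single values ran from -0.409 to 0.411. Of 60 libraries, 17 correlated best with their own number. Because lines are pooled, this cannot tell whether samples were paired within a line. Over the other settings on counts that kept all comparisons, 275 to 285 results kept both and none reversed, and with 1 library left out 1997 of 2052 did. With RUV-normalized values 252 did and 11 reversed, and the cause was not tested. The reversed ones were, for the Eed knockout against 1A wild type, Dusp6 (0.52), Spry2 (0.42), Spry4 (0.86) and Spred2 (0.06) at 0 h, and Dusp6 (0.40), Spry2 (0.51), Spry4 (0.74), Spred1 (0.68), Spred2 (0.58) and Il17rd (0.25) at 96 h, and Dusp5 at 48 h against 0 h in the Eed knockout (-0.13).

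Counts of members called moved as follows. With RUV-normalized values, 1 was lower (Dusp5) and 3 were higher in the Eed knockout than in 1A wild type at 0 h, and 0 lower and 3 higher at 96 h. Under that setting 1 was lower in the Ezh2 knockout at 0 h, 0 were higher in it at 96 h, 1 was lower in V19 at 0 h, and 3 were higher at 96 h than at 48 h in 1A wild type. The 12 h difference of the Ezh2 knockout then had 0 lower, and the return had 1 lower in the Eed knockout and 1 higher in V19. With no filter 1 was higher in the Ezh2 knockout at 0 h and 0 at 96 h. At 0 h 1 was higher in the Eed knockout with a filter at 1 CPM, with groups alone or without the libraries that stood apart, and 1 in V19 with groups alone. The return of the Eed knockout had 2 higher with groups alone or without the libraries that stood apart. Leaving out each library in turn gave 3 to 6 higher from 48 to 96 h in 1A wild type, 0 to 1 in the Eed knockout at 0 h, 1 to 2 in it at 96 h, and 0 in the Ezh2 knockout at 96 h.

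Counts over all genes moved mostly in differences between lines. The return of V19 against 1A wild type had 14 genes called, and 37 with no filter, 35 in DESeq2, 0 with groups alone, 38 with RUV-normalized values, 76 without the libraries that stood apart and 6 to 23 with 1 library left out. Its 12 h difference had 18, and 29 in DESeq2, 33 with groups alone, 39 without the libraries that stood apart and 6 to 16 with 1 left out. V19 against 1A wild type had 2415 with groups alone at 0 h (1590 as reported), and at 96 h 2244 with groups alone, 1849 without the libraries that stood apart and 699 to 905 with 1 left out (1124 as reported). Groups alone gave 900 genes higher from 48 to 96 h in V19 (2538 as reported), and 1 left out gave 1457 to 2839. RUV-normalized values gave 3005 at 0 h and 3486 at 96 h for the Eed knockout (7488 and 8337 as reported), and its 12 h difference had 1191 to 2619 with 1 left out (1696 as reported). For the Ezh2 knockout, the return had 3453 with groups alone, 3827 without the libraries that stood apart and 740 to 1773 with 1 left out (1778 as reported). Its 12 h difference had 796 without the libraries that stood apart and 285 to 524 with 1 left out (439 as reported), and the 96 h level 3042 and 1187 to 1726 (1992 as reported). Depth limits Spry4 and Dusp4 at 48 h, and in the Eed knockout at 12 h, where Spry4 had 16 counts over the group and Dusp4 57.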
